A study of Mus musculus with 16 samples.

Results

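The genes described here form the insulin and insulin-like growth factor (IGF) axis. They are the growth factors Igf1 and Igf2, the receptors Igf1r and Insr, the receptor adaptors Irs1 and Irs2, the binding proteins Igfbp1, Igfbp2 and Igfals, and the growth hormone receptor Ghr. These 10 genes were listed by symbol, out of 18111 gene symbols in the deposited expression table. Their RNA was measured on 16 Illumina arrays of biotin-labelled cRNA from primary cells of wild type B6 mice, in 4 groups of 4 arrays. Control hepatocytes and control islets were cultured with the vehicle, 0.1% DMSO. Treated hepatocytes received 200 nM and treated islets 10 nM of FK866, an inhibitor of NAMPT, the enzyme that makes nicotinamide mononucleotide on the way to NAD, and all cells were cultured for 48 h. The study's question was what NAD depletion by FK866 does to gene expression. The labels give no age or sex, and do not say whether the replicates of a group came from separate mice or cultures, so every p-value here measures only how far these arrays scatter, and that scatter may be technical.

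In the body, growth hormone acts on its receptor in the liver, and hepatocytes answer by secreting IGF-1 into the blood. There most of it travels in a complex of a binding protein and the acid-labile subunit, which Igfals encodes. IGF-1 and IGF-2 signal through the IGF-1 receptor and insulin through the insulin receptor; both receptors phosphorylate the adaptors IRS-1 and IRS-2, which start the PI3K and AKT pathway. Adult mouse hepatocytes are known for the insulin receptor and for little IGF-1 receptor, while islet beta cells carry both, and IRS-2 is the adaptor on which beta cell mass in mice depends.

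Levels are given as normalized log2 signals, and a probe counted as detected on an array where its deposited detection p-value was under 0.05. Array medians of the deposited signal lay between 27.1 and 30.1 for hepatocytes and between 15.4 and 33.1 for islets, and 11018 to 11846 of 25697 probes were detected. Both islet arrays numbered 2 stood apart, with median signals of 15.4 (control) and 18.05 (FK866) and median correlations of 0.916 and 0.959 with the islet arrays, against 0.984 to 0.993 for the others. The fibroblast and stellate cell marker list, with all 12 listed genes measured, stood 1.13 log2 higher on average on the control array numbered 2 than on the other control islet arrays and 0.65 higher on the FK866 array. Other lists moved on these arrays too. On the control array numbered 2 the beta, acinar and duct cell lists differed by -0.62, -0.60 and -0.47 log2. The alpha, delta and PP cell list differed by -0.23. On the FK866 array the same lists differed by -0.18, -0.34, -0.14 and -0.53. The endothelial list stood higher, by 0.20 and 0.28. Most markers fitted the tissue labels. All 8 measured of 12 listed hepatocyte markers were detected on all hepatocyte arrays. Apoa1, Serpina1a, Cps1, Ahsg and Cyp2e1 were detected on no islet array, while Apoa2, Ttr and Hnf4a were detected in control islets, and the list summed to a signal of 24995 to 47498 there against 38312 to 61092 in control hepatocytes. Of 10 beta cell markers 9 were detected on all control islet arrays. Ins2, Pdx1, Nkx6-1, G6pc2, Slc30a8 and Ucn3 were detected on no hepatocyte array, while Ins1, Iapp, Slc2a2 and Mafa were detected in control hepatocytes; that list summed to 148328 to 174691 in control islets and 568 to 714 in control hepatocytes.

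Most of the axis differed between the tissues. Of the 10 genes, 9 were detected on at least 4 arrays and were tested, and 8 of these differed between control islets and control hepatocytes at an adjusted p under 0.05 by limma, a linear model with a moderated spread fitted over all genes. Of those, 5 were higher in islets (Igf2, Igf1r, Irs2, Igfals and Ghr) and 3 were lower (Igf1, Igfbp1 and Igfbp2). Igf1r was detected in islets only, and Igfbp1 and Igfbp2 in hepatocytes only. These genes passed the detection filter only through the tissue where they were higher, so the filter favoured their calls, and the calls add no support of their own. In each of the 8, on the probe that stood for the gene, no value of one tissue overlapped the other. The share of all genes without overlap was not counted, so nothing particular to the members is read from this. The background was high. Of all 9987 genes tested, 66.1% passed the same threshold, with 35% higher and 31% lower in islets. The median size of the difference over all of them was 0.92 log2, against 2.56 for the 9 members. The members were chosen with earlier results of these data known, so nothing particular to the axis is read from the larger median. Markers of other cell types differed with the tissue as well. The macrophage list summed to a signal of 7746 to 12828 in control islets, with 8 of its 11 genes detected and Marco, Clec4f and Cd163 on no array, and to 3429 to 4961 in control hepatocytes, with 5 detected. The fibroblast and stellate list summed to 2037 to 4799 in control islets and 5039 to 8901 in control hepatocytes. Of that list Col1a2, Col3a1, Lum and Pdgfrb were detected on no hepatocyte array, and Tagln, Lum and Lox on no islet array. Its mean log2 signal overlapped, at 6.19 to 7.58 in control islets and 6.87 to 7.28 in control hepatocytes. The duct list, with 5 of 6 genes measured, summed to 6862 to 9925 in control islets and 23397 to 30057 in control hepatocytes, with Krt19 and Sox9 detected on no islet array. The part of these lists in the member levels was not tested. Tissue, isolation and culture cannot be told apart in this comparison, and in whole cultures fewer cells of a type and less RNA per cell cannot be told apart. Under FK866 all 9 tested members differed between the tissues, each in the same direction as in controls, against a background of 63.1% (33.9% higher and 29.2% lower). Both comparisons came from 1 fit over all 16 arrays, and same-numbered control and FK866 arrays varied together, so this was no independent repeat. The median difference of all genes was 0.08 log2 in controls and moved to -0.036 when each tissue was normalized alone, which is small beside the differences of the 8 members.

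**Figure D1:**
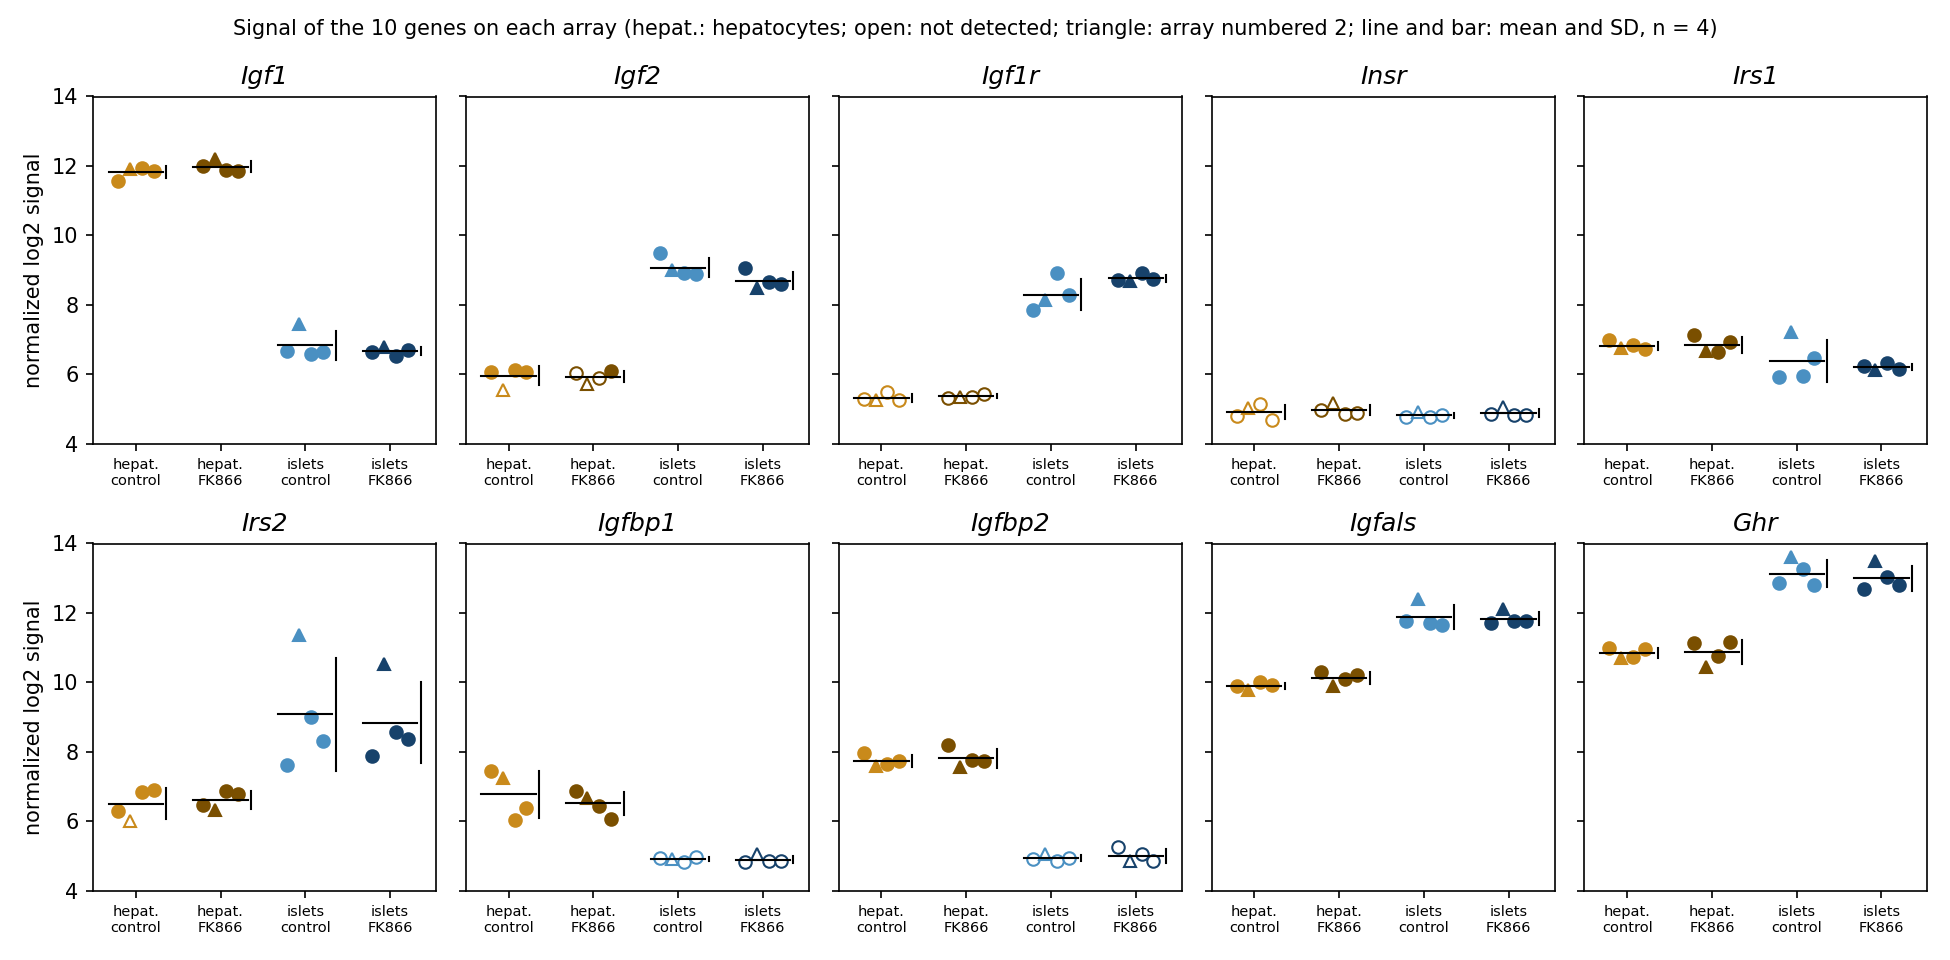
Normalized log2 signal of each of the 10 genes (1 panel each, vertical axis) on the 4 arrays of each group (horizontal axis). Open symbols mark arrays without detection, triangles the arrays numbered 2, and the line and bar the mean and SD of 4 arrays. Igf1, Igfbp1 and Igfbp2 stand higher in hepatocytes, Igf2, Igf1r, Irs2, Igfals and Ghr in islets, and Insr is at background on all arrays; control and FK866 arrays overlap in each panel.

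Igf1, the circulating growth factor, was the member with the largest difference. Its signal was 11.56, 11.90, 11.94 and 11.85 on the control hepatocyte arrays and 6.67, 7.43, 6.57 and 6.63 on the control islet arrays. It was detected on all 16 arrays, so islets gave a low but measured signal. With FK866 it was 12.00, 12.19, 11.88 and 11.85 in hepatocytes and 6.65, 6.78, 6.53 and 6.70 in islets. Hepatocytes stood far above islets with and without the drug, and among the islet arrays the control numbered 2 was the highest. The difference, islets minus hepatocytes, was -4.99 (SE 0.18, n = 4 arrays per group), a 31.7-fold lower level in islets (limma adjusted p = 6.2e-13). Under FK866 it was -5.31 (SE 0.18). A second Igf1 probe gave -3.81 (SE 0.16), and it was detected on 1 of 4 control islet arrays.

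Igf2, the fetal growth factor whose gene is imprinted and lies beside Ins2 in the mouse genome, ran the other way. Its signal was 9.48, 8.99, 8.90 and 8.89 in control islets and 6.07, 5.54, 6.13 and 6.07 in control hepatocytes. In FK866 islets it was 9.05, 8.48, 8.65 and 8.60, and in FK866 hepatocytes 6.03, 5.71, 5.90 and 6.08. The hepatocyte values lay close to background, where 3 of 4 control arrays and 1 of 4 FK866 arrays had detection, and all 8 islet arrays had it. Igf2 was higher in islets, with fitted differences of 3.11 log2 in controls (SE 0.18, limma adjusted p = 3.1e-10) and 2.77 under FK866 (SE 0.18), whose sizes rest on hepatocyte values at or near background. The ligands of the axis were therefore split, with Igf1 higher in hepatocytes and Igf2 higher in islets.

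Igf1r, the receptor that binds both IGFs, was detected on every islet array and on no hepatocyte array. Its signal was 7.86, 8.14, 8.90 and 8.27 in control islets and 8.72, 8.69, 8.90 and 8.73 in FK866 islets. On hepatocyte arrays it lay between 5.25 and 5.49, not well above background. Control islets therefore carried at least 5.06-fold more Igf1r signal than control hepatocytes, and FK866 islets at least 6.95-fold more than FK866 hepatocytes. The control islet array numbered 3, the highest of its group for Igf1r, also had the most acinar cell marker signal, with all 7 measured markers detected and a sum of 1493 against 362 to 485 on the other control islet arrays, and the part of these cells in the Igf1r level was not tested. Each bound sets the islet mean against the lowest detected signals of the hepatocyte arrays. The fitted differences were 2.98 (SE 0.17, limma adjusted p = 3.1e-10) and 3.41 (SE 0.17).

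Insr, the insulin receptor, gave no usable level. Its single probe was detected on 0 of 16 arrays, with detection p-values of 0.302 to 0.979 and normalized signals of 4.69 to 5.18 in all groups. Without the filter on detection, the difference between control tissues was -0.09 log2 (95% interval -0.33 to 0.15). Both tissues are known to make the receptor, so this probe's signal says nothing of whether its RNA differed between them. The files give no probe positions, and which part of a transcript any probe reads was not known here.

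**Figure D2:**
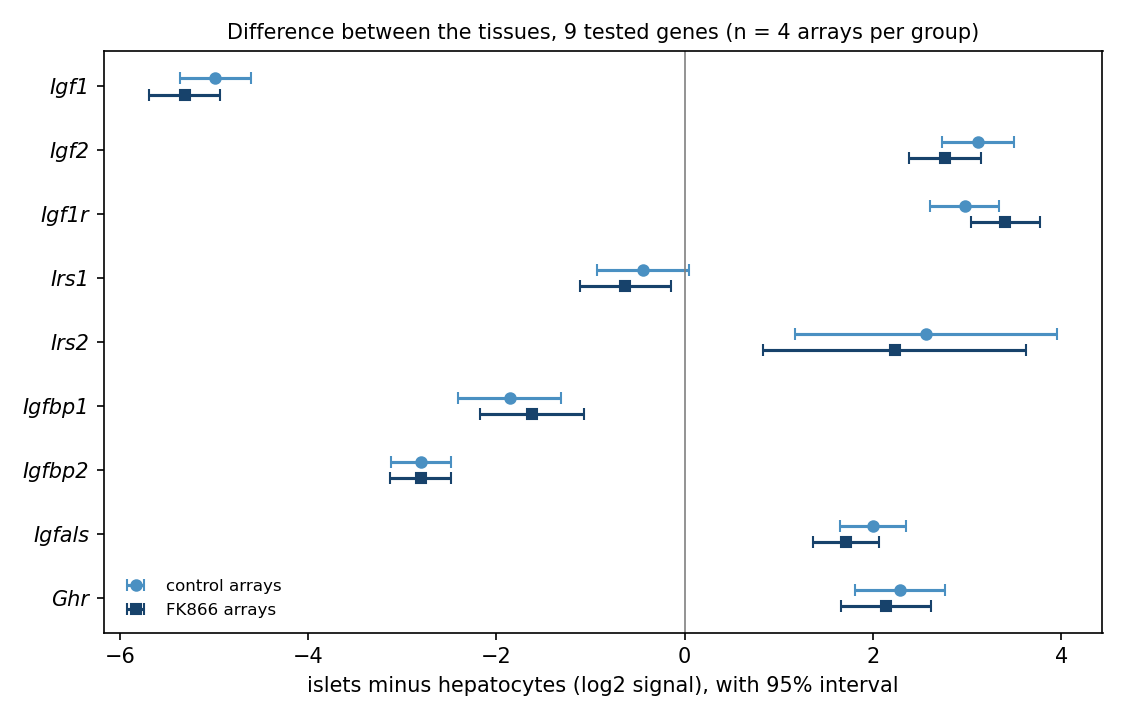
Islets minus hepatocytes in normalized log2 signal (horizontal axis) with 95% intervals, for the 9 tested genes (vertical axis), on control arrays (circles) and FK866 arrays (squares), 4 arrays per group. The control and FK866 differences lie close together for each gene, Irs1 is nearest to 0, and the values of Igf1r, Igfbp1 and Igfbp2 are fitted against a tissue in which the probe was not detected.

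The adaptors differed from each other. Irs2 was higher in islets by 2.56 log2 in controls (SE 0.65, limma adjusted p = 0.0028) and by 2.23 under FK866 (SE 0.65, adjusted p = 0.0075), and in islets it varied more between arrays of 1 group than any other member (SD 1.62 and 1.16). In control islets its signal was 7.62, 11.36, 9.0 and 8.31, and in FK866 islets 7.88, 10.53, 8.57 and 8.37. Both arrays numbered 2 were the highest of their group, also in the deposited signal before normalization. That signal was 1297 against 190 to 742 on the other control arrays, and 908 against 227 to 421 on the other FK866 arrays. In hepatocytes Irs2 was 6.28, 6.0, 6.85 and 6.90 with vehicle and 6.46, 6.33, 6.86 and 6.78 with FK866. Without both arrays numbered 2 the islets still stood higher, by 1.82 log2 in controls (SE 0.30, limma adjusted p = 5.0e-05) and by 1.68 under FK866 (SE 0.30). Several marker lists moved with these arrays, as given above. The fibroblast and stellate list summed to a signal of 4799 on the control array numbered 2, against 2037 to 2681 on the other control islet arrays. Under FK866 it summed to 3474 against 1803 to 2627. Of that list Tagln, Lum and Lox were detected on no islet array. The part of this list or of the others in the Irs2 level was not tested.

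Irs1, the other adaptor, was the member whose tissue difference was smallest. Control hepatocytes gave 6.98, 6.76, 6.83 and 6.72 and control islets 5.91, 7.21, 5.95 and 6.46, so the tissues overlapped through the islet array numbered 2. FK866 hepatocytes gave 7.12, 6.67, 6.65 and 6.92 and FK866 islets 6.24, 6.12, 6.32 and 6.15, which did not overlap. The difference in controls was -0.44 (SE 0.23, limma adjusted p = 0.0994) and did not pass the threshold. Under FK866 it was -0.63 (SE 0.23, adjusted p = 0.0245) and passed. Without both islet arrays numbered 2 it passed in controls too, at -0.74 (SE 0.15, limma adjusted p = 0.000376). Leaving out the control islet array numbered 2 gave -0.73 (limma adjusted p = 0.000654). With that array kept, the call was also made on the deposited scores (adjusted p = 0.0138) and with each tissue normalized alone (adjusted p = 0.0495).

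The 250 bases before the RefSeq starts of Irs1, Irs2 and Igfbp1 are shown because these 3, of the 9 members with an entry, hold the core of the insulin response element. This core, CAAAACA or TGTTTTG on the opposite strand, is bound by FOXO factors, which insulin signalling keeps out of the nucleus, and Irs2 and Igfbp1 are known FOXO targets in mouse liver. Capitals mark that core and the E-box CACGTG, 5' to 3' on the gene's strand, in build GRCm38.p6. Irs1 lies at chr1:82291440-82291689 (minus strand), Irs2 at chr8:11008930-11009179 (minus strand) and Igfbp1 at chr11:7197537-7197786 (plus strand).
Irs1: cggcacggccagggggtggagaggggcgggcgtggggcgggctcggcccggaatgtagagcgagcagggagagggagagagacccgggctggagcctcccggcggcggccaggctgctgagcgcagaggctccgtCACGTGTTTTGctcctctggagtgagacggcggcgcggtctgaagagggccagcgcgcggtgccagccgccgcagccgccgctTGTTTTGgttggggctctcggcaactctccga
Irs2: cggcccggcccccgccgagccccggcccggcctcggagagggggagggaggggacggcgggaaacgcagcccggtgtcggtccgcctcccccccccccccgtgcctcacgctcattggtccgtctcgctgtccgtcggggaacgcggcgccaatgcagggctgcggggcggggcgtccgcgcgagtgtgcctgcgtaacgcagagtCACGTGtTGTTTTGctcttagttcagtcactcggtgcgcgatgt
Igfbp1: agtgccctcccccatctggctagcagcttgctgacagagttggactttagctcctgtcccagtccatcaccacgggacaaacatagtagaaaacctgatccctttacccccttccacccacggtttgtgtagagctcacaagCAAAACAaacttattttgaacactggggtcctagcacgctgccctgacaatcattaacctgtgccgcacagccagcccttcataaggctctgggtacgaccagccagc
In Irs1 and Irs2 the E-box stands beside the core. They share 2 bases in Irs1, where the core ends 105 bases before the start, and are 1 base apart in Irs2, where it ends 31 bases before the start. Irs1 holds a further core ending 26 bases before the start, and that of Igfbp1 ends 102 bases before the start. Of 32851 RefSeq windows of this length, 5.56% hold the core on either strand, 6.02% the E-box and 0.295% both. The motif of the liver factor HNF1, searched as its half-site GTTAAT or ATTAAC on the opposite strand, was found in Igfbp1 only among the members, ending 51 bases before the start, and in 6.43% of all windows. The GC box GGGCGG or CCGCCC, held by 32.7% of all windows, was found in Igf1r, Igf2, Igfbp2, Igfals, Ghr, Irs1 and Irs2, and the TATA box TATAAA or TTTATA in 1 of the Ghr windows and in 12.4% of all. The Igf1r window had a GC content of 77.6%, against a median of 52.4% over all windows, and Igfbp1 one of 53.2%. A match describes these letters and is no evidence of binding. The 3 genes that hold the core did not share a tissue, since Igfbp1 was higher in hepatocytes, Irs2 in islets, and Irs1 differed least.

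Igfbp1 and Igfbp2 encode secreted proteins that bind IGFs; in mouse liver Igfbp1 is known to fall with insulin and rise with fasting. Igfbp1 gave 7.44, 7.25, 6.03 and 6.38 in control hepatocytes and 6.86, 6.68, 6.43 and 6.07 in FK866 hepatocytes. Its SD of 0.68 in control hepatocytes was the highest of any member there. On islet arrays it stayed between 4.82 and 5.04 and was detected on none of the 8. Control hepatocytes carried at least 1.88-fold and FK866 hepatocytes at least 1.59-fold more Igfbp1 signal than islets. The fitted differences were -1.86 (SE 0.26, limma adjusted p = 1.1e-05) and -1.62 (SE 0.26, adjusted p = 4.6e-05).

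Igfbp2 was steadier. It gave 7.96, 7.58, 7.66 and 7.73 in control hepatocytes and 8.19, 7.56, 7.75 and 7.73 in FK866 hepatocytes, and lay between 4.84 and 5.26 on islet arrays, with no detection there. Hepatocytes exceeded islets at least 3.66-fold in controls and at least 3.91-fold under FK866. A second probe gave -2.54 (SE 0.17) in controls, against -2.80 (SE 0.15) for the first, so both probes placed Igfbp2 in hepatocytes.

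Igfals, whose product stabilizes IGF complexes in blood and is known as a liver protein, was detected on all 16 arrays and was higher in islets. Control hepatocytes gave 9.88, 9.77, 10.00 and 9.91, and control islets 11.78, 12.40, 11.72 and 11.66. FK866 hepatocytes gave 10.30, 9.90, 10.09 and 10.21, and FK866 islets 11.72, 12.10, 11.77 and 11.76. The tissues did not overlap, and both islet arrays numbered 2 gave the highest normalized value of their group. In the deposited signal before normalization the same arrays gave the lowest, at 2663 against 3336 to 4530 in controls and 2564 against 3293 to 3767 under FK866. Islets exceeded hepatocytes by 2.00 log2 (SE 0.16, limma adjusted p = 2.2e-08), a 4.01-fold difference, and under FK866 by 1.71 (SE 0.16). Without the arrays numbered 2 the control difference was 1.84 (SE 0.10). A single probe stands for Igfals.

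Ghr, the growth hormone receptor, was also higher in islets. Control hepatocytes gave 10.98, 10.69, 10.73 and 10.97 and control islets 12.87, 13.62, 13.26 and 12.79. FK866 hepatocytes gave 11.14, 10.43, 10.75 and 11.15 and FK866 islets 12.68, 13.50, 13.03 and 12.81. On this first probe each islet array exceeded each hepatocyte array, by a mean of 2.29 log2 in controls (SE 0.22, limma adjusted p = 1.9e-07) and of 2.14 under FK866 (SE 0.22). A second Ghr probe was higher in islets by 0.95 in controls (SE 0.41, limma adjusted p = 0.0517) and by 0.85 under FK866 (SE 0.41, adjusted p = 0.0824). Neither passed the threshold. On this second probe the islet arrays numbered 2 were the lowest of their groups, at 8.12 against 9.85 to 10.21 in controls and 8.46 against 9.50 to 10.09 under FK866, where on the first probe they were the highest. Control hepatocytes gave 8.95, 8.49, 8.54 and 8.58 on the second probe and FK866 hepatocytes 8.83, 8.33, 8.51 and 8.76, so the tissues overlapped on it. Without the islet arrays numbered 2, an alternative chosen after seeing the data, the second probe was higher in control islets by 1.44 (SE 0.17, limma adjusted p = 1.6e-06). The mean differences of the probes thus agree in direction and not in size, and only the first probe passed with all arrays kept.

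FK866 changed no member past the threshold in either tissue. In hepatocytes 8 members were tested and 0 passed, among 8489 genes of which limma called 0 (0% of all, with 143 at an unadjusted p under 0.05). In islets 7 were tested and 0 passed, among 8843 genes of which limma called 0 (0%, with 120 at an unadjusted p under 0.05). In each member, control and FK866 arrays overlapped. The sizes were small in hepatocytes, from -0.26 (Igfbp1) to 0.24 (Igfals), with a median absolute change of 0.085 log2 beside 0.059 over all genes. In islets they ran from -0.37 (Igf2) to 0.47 (Igf1r), with a median absolute change of 0.17 beside 0.15. FK866 was given at 200 nM to hepatocytes and at 10 nM to islets, so the doses differ between the tissues.

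Of the tested members, Igfals, Igf2 and Igf1r kept 1 direction in all 4 number pairs of a tissue. Insr in islets, not tested and without detection, did so too, at 0.11, 0.15, 0.04 and 0.01. How many of all genes did so was not counted. Igfals was higher with FK866 in hepatocytes by 0.43, 0.14, 0.09 and 0.30 in pairs 1 to 4, a mean of 0.24 (SE 0.10, limma unadjusted p = 0.0417, adjusted p = 1.0). In islets its change was -0.05 (SE 0.21), with 2 of 4 pairs higher. Igf2 was lower with FK866 in islets by -0.42, -0.52, -0.26 and -0.29, a mean of -0.37 (SE 0.21, limma adjusted p = 1.0), and changed by -0.02 (SE 0.14) in hepatocytes. Igf1r in islets was higher by 0.86, 0.56, 0.01 and 0.47, a mean of 0.47 (SE 0.23, limma adjusted p = 1.0). With the replicate number as a block the unadjusted p-values were 0.017 for Igfals, 0.017 for Igf2 and 0.0185 for Igf1r, and the limma adjusted ones 0.719, 0.364 and 0.368, so none passed. That fit called 0 of 8489 genes in hepatocytes and 1 of 8843 (0.0113%) in islets. Without both islet arrays numbered 2 the change was -0.32 for Igf2 (adjusted p = 0.849) and 0.44 for Igf1r (adjusted p = 0.835).

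**Figure D3:**
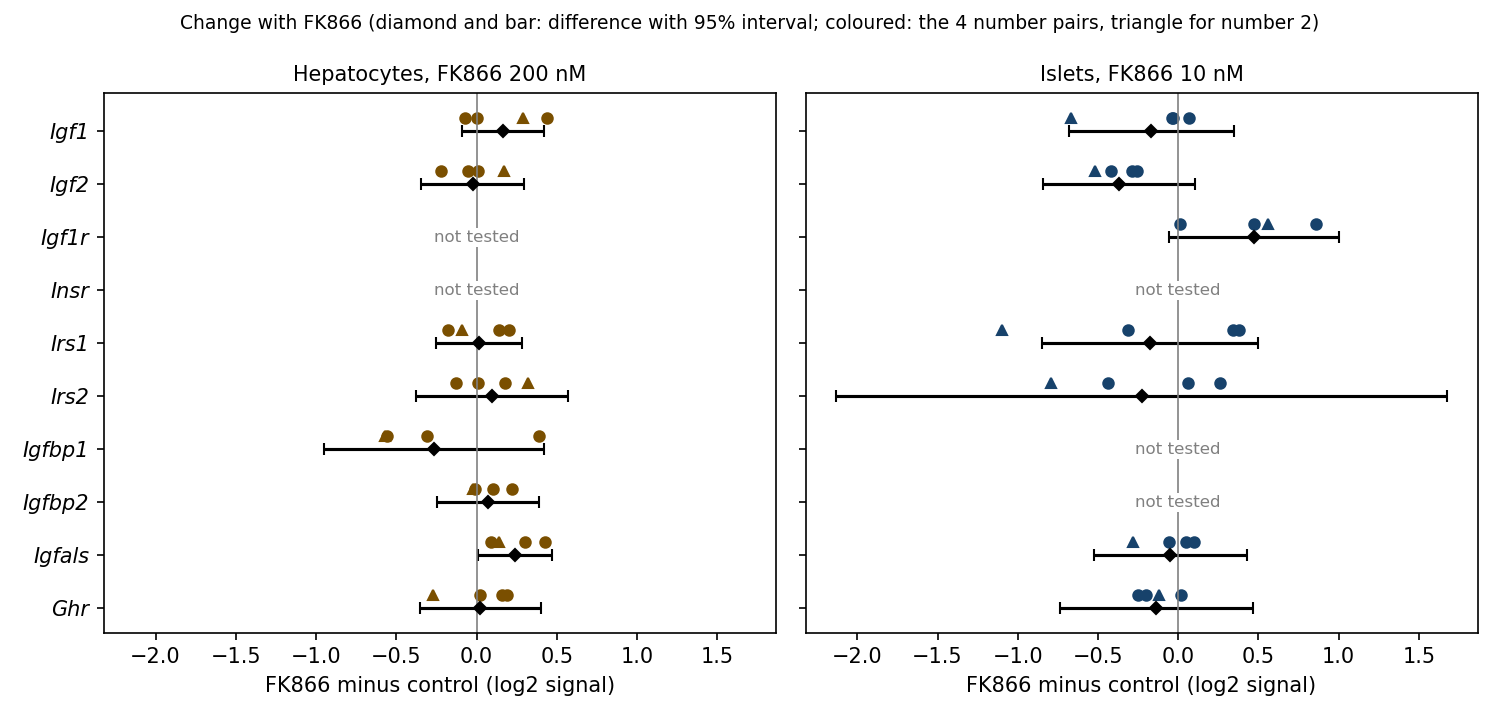
FK866 minus control in normalized log2 signal (horizontal axis) for the 10 genes (vertical axis), in hepatocytes at 200 nM and in islets at 10 nM. Diamonds and bars give the difference and its 95% interval with 4 arrays per group, from the fit without the replicate block. Coloured points give the 4 pairs of arrays with the same number, triangles for number 2. Only the interval of Igfals in hepatocytes leaves out 0, its lower end being 0.011, and Irs2 in islets has the widest interval.

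The intervals bound what could have been missed in the fit without the replicate block. In hepatocytes Igf1 changed by 0.17 log2 (95% interval -0.09 to 0.42), Irs1 by 0.02 (-0.25 to 0.29), Irs2 by 0.10 (-0.38 to 0.57), Igfbp2 by 0.07 (-0.24 to 0.39) and Ghr by 0.02 (-0.35 to 0.40). Igfbp1 had the widest interval there, -0.95 to 0.42 around -0.26. In islets Igf1 changed by -0.17 (-0.68 to 0.35), Irs1 by -0.17 (-0.85 to 0.50) and Ghr by -0.14 (-0.74 to 0.47). For Irs2 the interval ran from -2.13 to 1.68 around -0.23, with an SE of 0.84. With the block the SE of the Irs2 change was 0.19 (limma unadjusted p = 0.257). That fit bounds it more closely only if the numbers pair the islet arrays, which the labels do not say. The block also lowered the islet SEs of Igf1, Irs1 and Ghr, to 0.16, 0.24 and 0.12. The islet changes of Irs1 and Igf1 rested on the pair numbered 2. That pair fell by 1.10 log2 for Irs1, whose change without it was 0.15 (SE 0.18), and by 0.67 for Igf1, whose change without it was -0.0013 (SE 0.11). Igf1r in hepatocytes, Igfbp1 and Igfbp2 in islets and Insr in both were not tested, being too dim. The change in islets minus that in hepatocytes, tested as an interaction, passed for 0 of 9 members and for 0% of 9987 genes (178 at an unadjusted p under 0.05), or for 0.0401% with the block, again with 0 members. Its largest member values were 0.43 for Igf1r (SE 0.24), -0.35 for Igf2 (SE 0.26) and -0.33 for Irs2 (SE 0.93).

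The genes around the axis differed between tissues about as often as genes in general. A list of 74 hormones, receptors, binding proteins and signalling genes was used, of which 71 had a symbol in the table (6 under an older name), 66 a named probe and 58 were tested. In control islets 20 were higher, 15 lower and 23 did not pass, which makes 60.3% called against the background of 66.1%, and their median difference was 0.27 log2 against 0.08 for all genes. All 3 tested hormones were higher in islets, where 35% of all genes were higher. Ins1 was higher by 9.22 log2 (SE 0.14) and Ins2, detected on no hepatocyte array, at least 956-fold. Of 3 other receptors, the prolactin receptor Prlr and the insulin receptor-related Insrr went without detection in control hepatocytes. Their islet signal exceeded it at least 33.3-fold (Prlr) and at least 8.93-fold (Insrr).

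Among the 5 other IGF binding proteins, 2 were higher in islets, 2 lower and 1 did not pass, beside 35% higher and 31% lower over all genes. Igfbp5 was at least 70.0-fold and Igfbp7 1.66-fold higher in islets. Igfbp4 was 31.7-fold higher in hepatocytes, with detection on 2 of 4 control islet arrays, and Igfbp6 at least 1.61-fold. All 3 tested Igf2 mRNA-binding proteins were lower in islets, where 31% of all genes were lower, and nothing particular to so few genes was read from this. Igf2bp2 differed by -2.46 log2 (SE 0.30), and Igf2bp1, detected on no control islet array, was at least 2.10-fold higher in hepatocytes.

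Downstream of the receptors the calls went both ways, as they did over all genes, of which 35% were higher in islets and 31% lower. Nothing particular to these small groups was read from their counts. Of 7 other adaptors tested, 1 was higher in islets and 3 lower, with Shc1 at 1.39 log2 (SE 0.25), Gab1 at -1.95 (SE 0.18) and Crk at -1.60 (SE 0.39). Of 6 receptor inhibitors 1 was higher and 2 lower, with the phosphatase Ptprf at 0.90 (SE 0.34), the insulin receptor inhibitor Enpp1 at -2.27 (SE 0.22) and the adaptor-like inhibitor Grb14 at -1.13 (SE 0.19). Of 8 genes of the PI3K group 3 were higher and 2 lower. The regulatory subunit Pik3r3 stood at 2.14 (SE 0.19) and the kinase Pdpk1 at 0.98 (SE 0.24), the catalytic subunit Pik3cb at -1.97 (SE 0.25) and the catalytic subunit Pik3ca at -0.59 (SE 0.23), its groups overlapping. In the AKT group 2 of 5 were higher and 0 lower, the AKT inhibitor Trib3 at 2.29 (SE 0.28) and the kinase Akt2 at 0.79 (SE 0.30). Of 12 TSC and mTORC1 genes 4 were higher and 3 lower. Mlst8 (deposited as Gbl) stood at 1.70 (SE 0.20) and Tsc2 at 1.16 (SE 0.37), the translation repressor Eif4ebp1 at -1.49 (SE 0.17) and the ribosomal kinase Rps6kb1 at -1.20 (SE 0.29). Foxo1, the factor that binds the element shown above and the 1 FOXO gene tested, was higher by 1.08 (SE 0.19), and of 4 genes of growth hormone signalling only Cish, a feedback inhibitor, was higher, by 0.59 (SE 0.16).

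**Figure D4:**
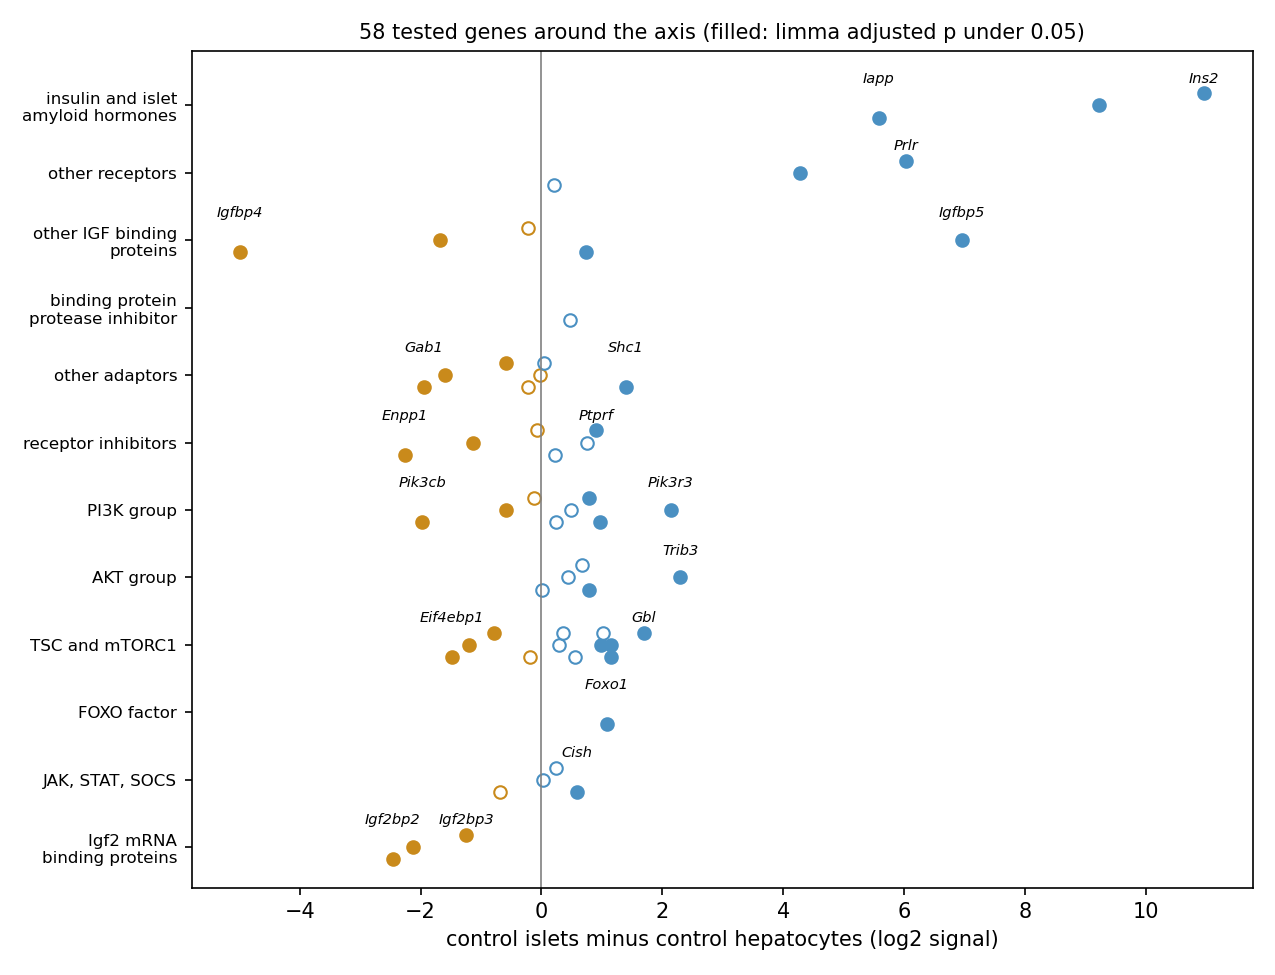
Control islets minus control hepatocytes in normalized log2 signal (horizontal axis) for the 58 tested genes around the axis, by role (vertical axis). Filled points passed limma's adjusted p of 0.05, blue to the right and brown to the left of 0; the outermost called genes of a role are named as deposited. The hormones lie far to the right, the 3 Igf2 mRNA-binding proteins to the left, and most other roles spread on both sides.

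FK866 moved none of these genes past the threshold. In hepatocytes 51 were tested, 0 passed and the median change was 0.0043 log2, and in islets 53 were tested, 0 passed and the median change was -0.054, beside 0.00048 and -0.0035 over all genes. The 4 genes of lowest p under the block are given as values. In hepatocytes the changes were 0.39 (SE 0.14) for the AKT phosphatase Phlpp1, -0.31 (SE 0.18) for Enpp1, 0.21 (SE 0.11) for the growth hormone feedback gene Socs2 and 0.19 (SE 0.085) for the kinase Mtor. In islets they were -0.65 (SE 0.24) for Gab1, -0.34 (SE 0.29) for Pik3r2, 0.49 (SE 0.32) for Igfbp3 and -0.43 (SE 0.60) for Insrr. The groups did not overlap for Phlpp1 in hepatocytes, higher in 4 of 4 pairs, and for Gab1 in islets, lower in 4 of 4 pairs. Phlpp1 was detected on 3 of 4 control hepatocyte arrays. How many of all genes showed such a pattern was not counted, so nothing is read from it. Neither passed, with limma adjusted p-values of 1.0 for both, or 0.691 for Phlpp1 and 0.249 for Gab1 with the block.

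Within groups, the genes most like each member were named by the correlation of deviations from the 4 group means over 16 arrays, among 9987 genes. The points share arrays, and both islet arrays numbered 2 give the widest deviations, so these values describe the arrays. Irs2 varied most like Nrd1 and Ubap2 (both r = 0.99), Igfals like Zfp398 and Ube2l3 (both r = 0.96) and Ghr like Pcif1 (r = 0.95) and Scamp5 (r = 0.94). Igf1 followed Appbp2 and Ict1 (both r = 0.94), Igf1r Papola (r = 0.94) and Nr2f6 (r = 0.91), and Irs1 Rcan1 (r = 0.92) and Itih1 (r = 0.87). Igf2 followed Ric3 (r = 0.87) and Cd14 (r = 0.85), Igfbp2 Vmo1 and Mettl7b (both r = 0.87), and Igfbp1 AI451557 (r = 0.88) and Nudt13 (r = 0.82). Among the members themselves Irs2 and Ghr correlated at 0.94 over the 8 islet arrays and at 0.27 over the 8 hepatocyte arrays. These values used the first Ghr probe, on which the islet arrays numbered 2 were the highest, as for Irs2. On the second Ghr probe those arrays were the lowest, and no correlation of that probe is given.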

How the data were processed

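Probe intensities were deposited on a linear scale and, by their values, were background-subtracted but not yet brought to 1 scale across arrays. Per the file headers each signal column is followed by a detection p-value. The deposited normalized table holds a score per gene symbol, by its values the log10 signal with a floor of 1, centred and scaled within each array. Which software the authors used for scanning and scaling is not given in the sources used here.

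Genes are not named in the intensity table. Matching log10 signals to the scores within 3e-08 named 21973 of 25697 probes and 15743 of 18111 symbols. The islet columns of the score table are displaced by 1 position over 5015 genes, which include Insr, Irs1 and Irs2. In that stretch 2308 symbols with 1 probe matched the position above and 0 their own, so islet scores were moved before use.

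Signals were processed with neqc of limma 3.58.1 (R 4.3.3), which corrects the background from detection p-values, adds an offset of 16, quantile normalizes and takes log2; the offset makes fold changes of dim genes too small. Tissue comparisons and the difference of FK866 changes used all 16 arrays in a model of 4 groups that share 1 spread, and FK866 within a tissue used its 8 arrays. The probe with the highest mean stood for a gene, tested if its detection p was under 0.05 on at least 4 arrays of the fit, with Benjamini-Hochberg adjustment over all tested genes at 0.05. Group spreads are SDs, errors of differences are limma's SE, and intervals cover 95%. The fit was tested on simulated data. No arrays held identical values, and their number limits the precision.

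Control and FK866 samples share replicate numbers. Deviations from group means of same-numbered arrays correlated at 0.386 to 0.616 in hepatocytes and 0.529 to 0.926 in islets. Differently numbered arrays correlated at -0.37 to 0.079 in hepatocytes and -0.85 to 0.67 in islets, so in islets the ranges overlapped. The numbers were taken to pair samples within a tissue, from the data and not from the labels, and in islets this is less certain. Alternatives changed the normalization, offset, filter, variance model, probe choice and scale, added the block, or left arrays out. All 10 members were named with every probe; of the wider list, up to 2 called genes per role and direction with the largest tissue difference, and per tissue the 4 smallest FK866 p-values with the block; for likeness, the 2 genes with the highest correlation. The members and lists were chosen with earlier results of these data known. Some genes of the wider list are not reported here and were left out of its counts; they stayed in the fits. Older symbols were matched through RefSeq (GRCm38.p6), as were the promoter windows, for which 9 of the 10 members had an entry and 16 windows; the 250 bases before each start were searched.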

Additional observations from a re-analysis of the deposited data

Results flagged for a closer look

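Of 40 groups of 4 arrays, 1 for each member and group, 7 held a value farther from the rest than Dixon's 95% limit allows; chance gives about 1 in 20. The islet arrays numbered 2 account for 4 of them. Igf1 was 7.43 on the control array numbered 2, against 6.67 for the next highest, and there its deposited signal before normalization was the lowest of the group, at 64.0 against 90.2 to 106. Igfals was 12.40 on that array against 11.78 for the next, and 12.10 on the FK866 array numbered 2 against 11.77. Igfbp1 was 5.04 on the FK866 array numbered 2 against 4.85, without detection on either.

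The other 3 lay elsewhere. Igf2 was 9.48 on the control islet array numbered 1, against 8.99 for the next highest. Igf2 was 5.54 on the control hepatocyte array numbered 2, where it was not detected, against 6.07 for the next lowest. Igf1r was 5.49 on the control hepatocyte array numbered 3 against 5.28, with no detection in that group.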

How the results depend on the processing

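Each tissue comparison was repeated under 25 alternatives and the FK866 comparisons under 20 in hepatocytes, 21 in islets and 29 for their difference. The number of members called stayed between 8 and 9 in both tissue comparisons and at 0 in the FK866 comparisons, and no called member changed direction under any of these alternatives. Irs1 was the member whose call changed. In controls it passed on the deposited scores (-0.19 score units, limma adjusted p = 0.0138), with each tissue normalized alone (-0.54, adjusted p = 0.0495), without the control islet array numbered 2 (-0.73) and without both islet arrays numbered 2 (-0.74), and with single arrays left out it ran from -0.73 to -0.28. Under FK866 it no longer passed without FK866 hepatocyte array 1 (-0.54, adjusted p = 0.0757) or 4 (-0.60, adjusted p = 0.0552) or FK866 islet array 4 (-0.61, adjusted p = 0.0520). The second Ghr probe passed without the arrays numbered 2, by 1.44 in controls and 1.18 under FK866, against 0.95 and 0.85 with them. Apart from the arrays left out, the cause was not tested. Over all members and alternatives, uncalled FK866 values changed sign in 18 of 153 cases in hepatocytes, 10 of 147 in islets and 16 of 261 for the difference.

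With the replicate block, 0 members passed in any FK866 comparison, the smallest member adjusted p being 0.364, and no tissue call changed (Irs1 in controls: adjusted p = 0.117). Deviations of same-numbered arrays of different tissues correlated at -0.105 to 0.0804, so the number did not pair samples across tissues. In the tissue comparisons the block joined arrays by this number, so it is no check of the tissue calls. Over all genes the block raised the count of unadjusted p under 0.05 from 143 to 533 in hepatocytes and from 120 to 1027 in islets, with 0 and 1 genes called, and called 4 for the difference. Other alternatives that called any gene gave 2 in hepatocytes (deposited scores), 2 in islets (fit over 16 arrays) and 1 to 3 for the difference with arrays left out. Signal over background limits Insr on all arrays, Igf1r in hepatocytes and Igfbp1 and Igfbp2 in islets.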
